A study of Homo sapiens with 6 samples.

Results

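The genes described here are 10 members of the hypoxia-inducible factor (HIF) pathway whose products act outside glycolysis, and they were taken by symbol from the count table of K562 cells with and without hyperoside. They are HIF1A, EPAS1, EGLN1, EGLN3, ADM, VEGFA, BNIP3, BNIP3L, NDRG1 and ANKRD37, or 10 of the 24960 genes listed. All 10 passed the filter on low counts and were among the 15095 genes tested. K562 is a cell line from chronic myeloid leukemia that grows in suspension and carries the BCR-ABL1 fusion. The control group and the hyperoside group held 3 libraries each, and the paper's results give the dose of hyperoside, a plant flavonol glycoside, as 2 mM. All 6 libraries came from the same cell line, the labels give no vehicle for the control group and no length of treatment, and they do not say whether the replicates were separate cultures. The paper's statistical methods speak of repeated experiments in general without naming the RNA-seq. The p-values are therefore taken to measure the spread between these libraries, which may be technical.

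HIFs are transcription factors made of an oxygen-sensitive alpha subunit, encoded by HIF1A or EPAS1 (HIF-2 alpha), and the stable beta subunit ARNT. In the presence of oxygen, prolyl hydroxylases of the EGLN family mark the alpha subunit, the von Hippel-Lindau protein binds the marked form, and the proteasome degrades it. When oxygen or the iron of the hydroxylases is short, the alpha subunit persists and binds DNA at a short core motif in its target genes, among which are EGLN3, ADM, VEGFA, BNIP3, NDRG1 and ANKRD37. The activity of HIF is thus set largely at the level of protein, which RNA-seq does not measure.

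The HIF core motif was searched for in the 300 bases around the start of each gene, from 250 bases before it to 50 after it. The reason was that several members are known HIF targets, while the levels of the members did not all move the same way. HIF1A and EPAS1, which encode subunits of HIF itself, were searched in the same way. The motif was spelled ACGTG or GCGTG and searched on both strands (CACGT or CACGC when read from the other strand), so that the palindrome CACGTG counts as 2 overlapping matches. RefSeq windows on GRCh38.p14 were used for 7 of the 10 members, with 8 windows in all since HIF1A had 2 starts. VEGFA, BNIP3L and NDRG1 were not among them. A match was found in 6 of the 8 windows, against 48.4% of all 35116 windows of this length. Both spellings hold the pair CG. The member windows held 65.0 to 80.7% G and C, except that of the second HIF1A start (31.7%). The shares of all windows given here were not matched for base composition. The windows shown are those of the genes with the most matches, BNIP3 and ANKRD37, and of the 4 genes that rose and had a window, EPAS1, EGLN1, EGLN3 and ADM, each read 5′ to 3′ along the gene's own strand with the matches in capitals.
BNIP3, chr10:131981874-131982173, minus strand: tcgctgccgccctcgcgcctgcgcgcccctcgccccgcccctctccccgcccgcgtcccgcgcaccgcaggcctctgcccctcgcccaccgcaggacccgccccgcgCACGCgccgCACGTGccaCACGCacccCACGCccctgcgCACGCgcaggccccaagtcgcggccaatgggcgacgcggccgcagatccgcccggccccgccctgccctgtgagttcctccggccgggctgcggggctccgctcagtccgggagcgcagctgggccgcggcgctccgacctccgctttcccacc
ANKRD37, chr4:185396591-185396890, plus strand: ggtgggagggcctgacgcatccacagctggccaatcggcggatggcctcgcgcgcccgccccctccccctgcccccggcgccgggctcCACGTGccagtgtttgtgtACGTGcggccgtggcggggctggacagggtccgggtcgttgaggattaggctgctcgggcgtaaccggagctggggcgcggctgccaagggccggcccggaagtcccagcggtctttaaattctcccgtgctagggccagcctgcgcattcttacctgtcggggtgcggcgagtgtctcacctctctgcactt
EPAS1, chr2:46297157-46297456, plus strand: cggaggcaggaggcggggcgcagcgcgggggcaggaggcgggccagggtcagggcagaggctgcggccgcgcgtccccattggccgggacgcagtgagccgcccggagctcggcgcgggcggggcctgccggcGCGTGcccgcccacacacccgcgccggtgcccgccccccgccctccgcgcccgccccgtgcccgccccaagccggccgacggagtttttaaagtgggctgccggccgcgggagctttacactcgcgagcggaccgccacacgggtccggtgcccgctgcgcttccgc
EGLN1, chr1:231422238-231422537, minus strand: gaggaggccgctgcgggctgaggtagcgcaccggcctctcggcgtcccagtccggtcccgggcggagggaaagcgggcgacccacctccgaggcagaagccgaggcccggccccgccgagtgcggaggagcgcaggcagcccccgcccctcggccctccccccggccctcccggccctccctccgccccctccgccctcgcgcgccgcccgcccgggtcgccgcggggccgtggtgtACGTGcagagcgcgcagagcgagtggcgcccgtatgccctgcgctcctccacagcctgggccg
EGLN3, chr14:33951025-33951324, minus strand: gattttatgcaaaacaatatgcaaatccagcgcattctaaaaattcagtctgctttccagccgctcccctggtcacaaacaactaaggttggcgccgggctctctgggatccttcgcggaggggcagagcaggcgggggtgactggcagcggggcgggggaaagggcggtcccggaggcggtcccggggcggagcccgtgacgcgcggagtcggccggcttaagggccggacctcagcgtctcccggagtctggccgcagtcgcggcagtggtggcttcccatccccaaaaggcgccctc
ADM, chr11:10304823-10305122, plus strand: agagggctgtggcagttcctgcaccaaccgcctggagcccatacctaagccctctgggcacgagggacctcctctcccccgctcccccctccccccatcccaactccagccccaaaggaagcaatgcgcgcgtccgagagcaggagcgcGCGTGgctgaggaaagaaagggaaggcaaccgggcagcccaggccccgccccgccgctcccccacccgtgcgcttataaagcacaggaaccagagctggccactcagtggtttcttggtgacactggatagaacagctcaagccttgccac
BNIP3 had 6 matches, which lie between 143 and 104 bases before the start, and 1.98% of all windows hold 5 or more. ANKRD37 had 3, of which the first began 162 and the last 143 bases before the start, and 10.1% of all windows hold 3 or more. EPAS1, EGLN1 and ADM had 1 match each, as had the upstream start of HIF1A. The windows of EGLN3 and of the second HIF1A start had none, which says only that these letters are not in these 300 bases. Of these genes, BNIP3, with the most matches, was lower in the hyperoside group, and EGLN3, with none, was higher, as described below. EPAS1, EGLN1 and ADM, with 1 match each, were also higher, and ANKRD37, with 3, was not called. HIF1A, with 1 match at 1 of its 2 starts, was lower. Whether the motif has a part in these changes was not tested.

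Library totals ranged from 35613283 to 36754725 gene counts, and the members had from 94 counts (ADM, control replicate 3) to 25867 counts (VEGFA, hyperoside replicate 3) in a library. Replicates of a group differed by more than counting error, with chi-square values per degree of freedom of 6.46 to 24.4 for pairs of controls and 7.57 to 14.0 for pairs within the hyperoside group. All 9 genes listed for K562 identity, such as GATA1, TAL1 and BCR, had counts in every library. The defining lymphoid and myeloid markers CD2, MS4A1, CD14, MPO and ELANE stood below 1 CPM (counts scaled to library size) in both groups. Of the K562 list 4 genes rose, among them KLF1, NFE2 and EPOR, and 1 fell, and the summed level of the list was 975.5 to 1107 CPM in the controls and 1147 to 1267 CPM in the hyperoside group. Of 5 fibroblast and endothelial genes, 4 were in the count table and tested. Of these 1 rose (PECAM1) and 2 fell, with sums of 14.4 to 17.2 and 31.3 to 34.9 CPM. Of 6 monocyte and granulocyte genes, 3 were tested and 1 rose (LYZ), with sums over all 6 of 54.5 to 60.6 and 77.7 to 83.7 CPM. Their part in the results below was not tested. Levels are given as normalized CPM, which uses library totals scaled by edgeR's TMM method. Genes are compared with each other only on the authors' FPKM values, which also divide by gene length. In bulk RNA, a smaller number of cells of one kind and less RNA per cell cannot be told apart.

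Hyperoside-treated cells had more RNA of 7 of the 10 genes and less of 2. ADM, EPAS1 and EGLN3 rose by more than 2-fold, NDRG1, EGLN1, BNIP3L and VEGFA rose by smaller amounts, and HIF1A and BNIP3 fell. The difference in ANKRD37 did not pass the test. Among all tested genes, 45.3% were called at an adjusted p under 0.05 (quasi-likelihood test of edgeR, Benjamini-Hochberg), 22.1% as higher and 23.2% as lower. The share called higher with a fold change above 2 was 6.43%, against 3 of the 10 members, and the share called lower with such a fold was 3.76%, against 0 of 10. The libraries of the groups did not overlap in 9 of the 10 genes, as in 54.4% of all tested genes. The median log2 change (the log2 of the fold change, hyperoside over control) was 0.48 over the members and 0.00 over all tested genes. The 10 genes were picked with earlier results of these data known, so these counts describe them and do not test them as a set.

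**Figure D1:**
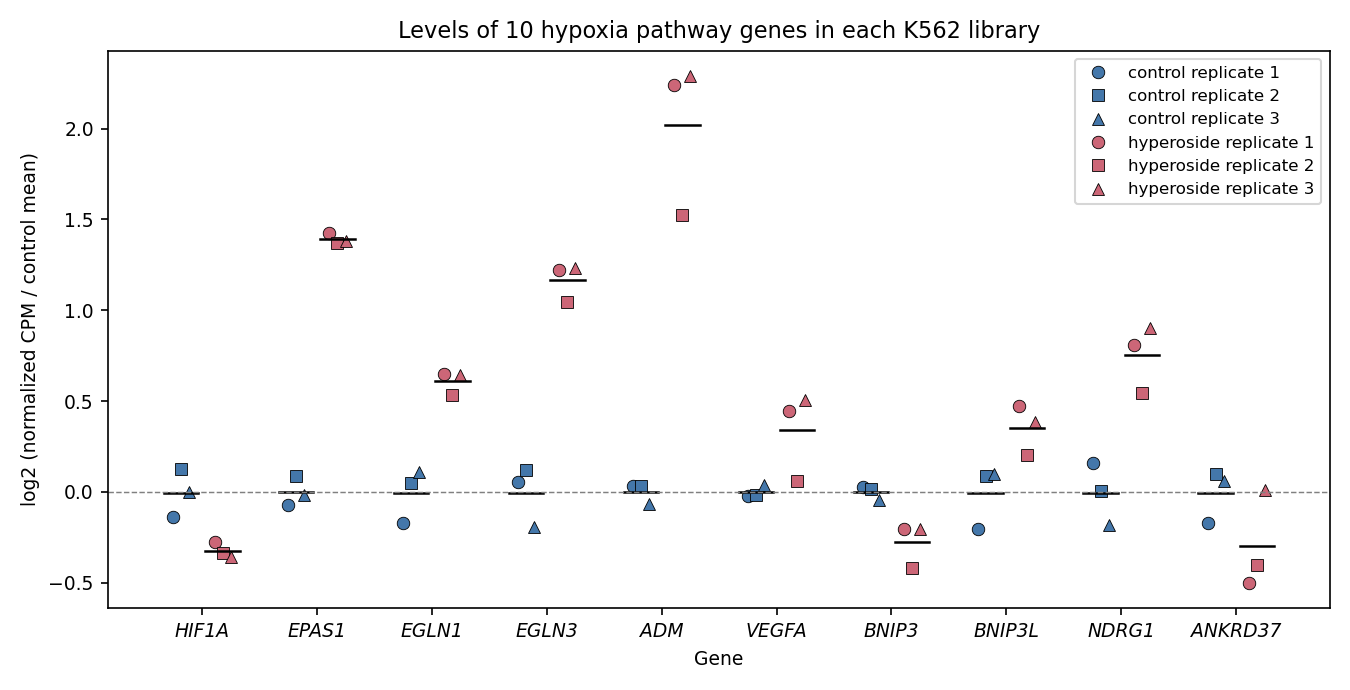
Each point is the normalized CPM of a gene in a library as a log2 ratio to the mean of the control libraries, with blue for control, red for hyperoside and the marker shape for the replicate number, and bars give the group means of the log2 ratios. The 3 hyperoside libraries lie above all control libraries in 7 genes, and below them in HIF1A and BNIP3, while in ANKRD37 hyperoside replicates 1 and 2 lie below the controls and replicate 3 among them, and in 8 of the 10 genes hyperoside replicate 2 is the lowest of its group.

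The alpha subunits moved in opposite directions. EPAS1 encodes HIF-2 alpha, known for its control of erythropoietin and iron genes. It had 34.5, 38.7 and 35.9 normalized CPM in controls 1 to 3 and 97.8, 94.1 and 94.8 in hyperoside libraries 1 to 3, in the order of the replicate numbers. All hyperoside libraries stood above all control libraries, as in 27.1% of all tested genes, and the replicates lay close together. The mean rose from 36.4 ± 2.11 to 95.6 ± 2.01 CPM (SD, n = 3 in each group), for a log2 change of 1.39 (SE, standard error, 0.08, adjusted p = 5.57e-10), and EPAS1 ranked 38 of the 15095 tested genes by p.

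HIF1A encodes the more widely expressed HIF-1 alpha. Its levels were 49.2, 59.1 and 54.2 CPM in controls 1 to 3 and 44.7, 42.9 and 42.2 CPM in hyperoside libraries 1 to 3. The highest hyperoside library was below the lowest control library, as in 27.3% of all tested genes. The mean fell from 54.2 ± 4.96 to 43.2 ± 1.30 CPM (SD, n = 3 in each group), for a log2 change of -0.33 (SE 0.09, adjusted p = 0.00604). Without control replicate 2, the library with the most HIF1A, the log2 change was -0.26 and the adjusted p was 0.0504.

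HIF1A maps to chr14:61695513-61748259 of GRCh38 (plus strand), and 117 of its 5151 annotated exonic bases are shared with the antisense gene HIF1A-AS1, which had 0 counts in all libraries. A 0 allows up to 3 counts, which covers counting error only. On the same strand, 148 of the HIF1A bases are shared with AL137129.1, which is not in the count table. How reads from these bases were counted is not given in the sources used here. The antisense row HIF1A-AS3 had 29, 46 and 31 counts in controls 1 to 3 and 84, 63 and 67 counts in hyperoside libraries 1 to 3. It changed by 0.96 on the log2 scale (SE 0.34, adjusted p = 0.0274), and the adjusted p was over 0.05 when control replicate 1 or 3 or hyperoside replicate 1 or 3 was left out, reaching 0.114. HIF1A-AS2, also antisense, had 10, 51 and 46 counts in controls 1 to 3 and 32, 13 and 17 in hyperoside libraries 1 to 3. Its log2 change was -0.83 (SE 0.56, adjusted p = 0.245), opposite in sign and not called. The sources used here do not state whether reads were counted by strand, so reads from genes that overlap on opposite strands could not be assigned with certainty.

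Per length, the order of the alpha subunits changed. The FPKM of EPAS1 divided by that of HIF1A was 0.540, 0.503 and 0.510 in controls 1 to 3 and 1.68, 1.69 and 1.73 in hyperoside libraries 1 to 3. HIF1A thus had the higher FPKM in each control library and EPAS1 in each hyperoside library. The mean log2 ratio differed by 1.72 between the groups, with an exact permutation p of 0.1 (two-sided), the smallest that 3 libraries against 3 allow, and 0.1 after adjustment over the 3 ratios compared. EPAS1 maps to chr2:46293667-46386703 (plus strand).

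**Figure D2:**
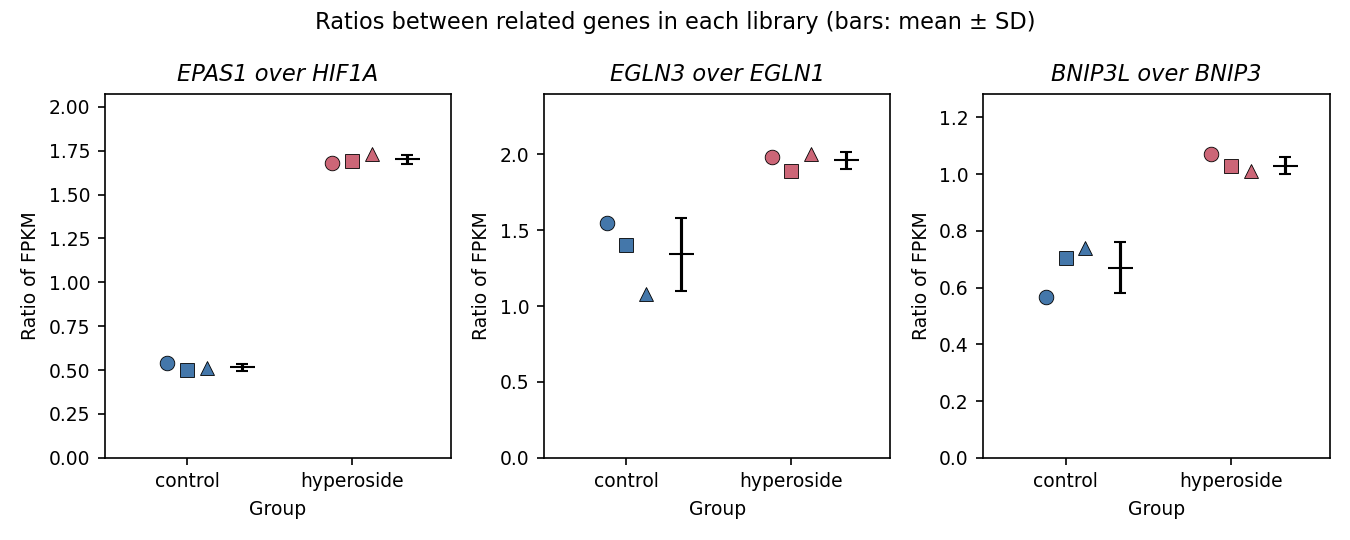
Points give the ratio of the FPKM values of a gene pair in each library, with blue for control, red for hyperoside and circle, square and triangle for replicates 1, 2 and 3, and bars give the group mean and SD of 3 libraries. The ratio of EPAS1 to HIF1A went from 0.517 ± 0.0195 to 1.70 ± 0.0247, and the groups did not overlap in any of the 3 ratios. For EPAS1 over HIF1A and BNIP3L over BNIP3 this follows from the separate genes, which moved in opposite directions without overlap.

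Both tested prolyl hydroxylases rose. EGLN3 (PHD3), a hydroxylase gene that is itself a HIF target, had 57.9, 60.6 and 48.8 CPM in controls 1 to 3 and 130.1, 114.9 and 130.9 CPM in hyperoside libraries 1 to 3. The lowest hyperoside library was well above the highest control library. The mean went from 55.7 ± 6.17 to 125.3 ± 8.99 CPM (SD, n = 3 in each group), for a log2 change of 1.17 (SE 0.09, adjusted p = 1.57e-08).

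EGLN1 (PHD2), the main oxygen sensor among the hydroxylases, had 60.3, 70.2 and 73.4 CPM in controls 1 to 3 and 106.5, 98.4 and 106.1 CPM in hyperoside libraries 1 to 3. The groups did not overlap. The mean rose from 67.95 ± 6.82 to 103.7 ± 4.58 CPM (SD, n = 3 in each group), for a log2 change of 0.61 (SE 0.08, adjusted p = 1.38e-05). The FPKM of EGLN3 was 1.34 ± 0.243 times that of EGLN1 in the control group and 1.96 ± 0.0564 times in the hyperoside group, a difference in mean log2 ratio of 0.56 with a two-sided exact permutation p of 0.1 and 0.1 after adjustment.

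EGLN2, the remaining hydroxylase of the family, had 1, 0 and 0 counts in controls 1 to 3 and 1, 1 and 0 in hyperoside libraries 1 to 3. Of its 6577 annotated exonic bases on chromosome 19, 2012 are shared on the same strand with the readthrough gene RAB4B-EGLN2, and how such reads were counted is not given in the sources used here. Its level is therefore uncertain. EGLN1 maps to chr1:231363751-231425044 and EGLN3 to chr14:33924231-34462774, both on the minus strand.

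Other genes of HIF turnover were mostly lower or not called. Of the 11 listed, 9 were tested, 1 rose, 3 fell and 5 did not pass the test, with a median log2 change of -0.16. The share called was 44.4%, near the 45.3% of all tested genes. VHL, which encodes the von Hippel-Lindau protein, fell from 298.1 to 198.8 mean CPM, a log2 change of -0.58 (SE 0.07, adjusted p = 1.83e-06). The genes of its elongin partners fell too, ELOC with a log2 change of -0.38 and ELOB with -0.33. HIF1AN, the asparaginyl hydroxylase that blocks coactivator binding, had a log2 change of 0.32 (adjusted p = 0.0106), and 0.26 (adjusted p = 0.0672) without hyperoside replicate 2.

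The partner subunit ARNT had a log2 change of -0.16 (SE 0.08, adjusted p = 0.1), and -0.17 (adjusted p = 0.0473) without control replicate 1. The coactivator genes CREBBP and EP300 rose, with log2 changes of 0.96 (adjusted p = 6.28e-07) and 0.75 (adjusted p = 5.86e-07). CITED2, a HIF target whose product competes with HIF for these coactivators, had 97.5 mean CPM in the control group and rose 2.05-fold, a log2 change of 1.04 (adjusted p = 1.65e-08).

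Of the secreted factors, ADM changed most. ADM encodes adrenomedullin, a vasodilator peptide and HIF target. It had 99, 99 and 94 counts in controls 1 to 3 and 478, 291 and 486 counts in hyperoside libraries 1 to 3, or 2.82, 2.81 and 2.63 CPM against 13.0, 7.92 and 13.5 CPM. Hyperoside replicate 2 stood below the other hyperoside libraries, though far above the controls. The mean rose 4.17-fold, from 2.75 ± 0.106 to 11.5 ± 3.08 CPM (SD, n = 3 in each group), for a log2 change of 2.06 (SE 0.20, adjusted p = 2.51e-07). Without hyperoside replicate 2 the log2 change was 2.26. ADM maps to chr11:10304680-10307397 (plus strand).

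The receptor genes of the adrenomedullin system had few or no counts. CALCRL, the receptor, had 0 to 11 counts per library, and RAMP3, one of its accessory proteins, had 0 in all libraries. The related ligand ADM2 had 69, 44 and 77 counts in controls 1 to 3 and 16, 44 and 20 in hyperoside libraries 1 to 3, a log2 change of -1.29 (SE 0.42, adjusted p = 0.0188) opposite in sign to that of ADM. This call was lost when control replicate 3 (-1.14), hyperoside replicate 1 (-1.03) or hyperoside replicate 3 (-1.12) was left out, with an adjusted p of up to 0.0825.

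VEGFA encodes the main angiogenic growth factor of the VEGF family. It was the most abundant member per length, with 130.6 ± 5.90 FPKM in the control group, and ranked 391 by this mean among the 24960 listed genes. Its levels were 497, 498 and 518 CPM in controls 1 to 3 and 688, 526 and 716 CPM in hyperoside libraries 1 to 3. The groups did not overlap, but hyperoside replicate 2 lay close to control replicate 3. The log2 change was 0.35 (SE 0.09, adjusted p = 0.00422), and 0.48 (adjusted p = 8.28e-05) without hyperoside replicate 2. VEGFA maps to chr6:43770184-43786487 (plus strand), and 188 of its 14431 exonic bases are shared with the opposite-strand gene AL136131.3, which is not in the count table.

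Of the other VEGF ligands, PGF, placental growth factor, rose from 2.13 to 5.23 mean CPM, a log2 change of 1.30 (adjusted p = 6.85e-05). VEGFB had a log2 change of 0.19 (SE 0.09, adjusted p = 0.0937), and 0.27 (adjusted p = 0.00699) without control replicate 1. VEGFC and VEGFD had at most 4 counts in any library.

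The paired mitophagy receptors moved in opposite directions. BNIP3L (NIX), which marks mitochondria for removal during red cell maturation as well as under hypoxia, had 201.4, 247.3 and 249.0 CPM in controls 1 to 3 and 322.3, 267.2 and 303.8 CPM in hyperoside libraries 1 to 3. The groups did not overlap, and control replicate 1 was the lowest library. The mean rose from 232.6 ± 27.0 to 297.8 ± 28.1 CPM (SD, n = 3 in each group), for a log2 change of 0.36 (SE 0.09, adjusted p = 0.00314).

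BNIP3, its close relative and a HIF target, had 153.8, 152.3 and 146.1 CPM in controls 1 to 3 and 131.0, 112.7 and 130.9 CPM in hyperoside libraries 1 to 3. All hyperoside libraries were below all control libraries. The mean fell from 150.7 ± 4.05 to 124.9 ± 10.5 CPM (SD, n = 3 in each group), for a log2 change of -0.27 (SE 0.08, adjusted p = 0.0076). Without hyperoside replicate 2 the log2 change was -0.20 and the adjusted p was 0.0562.

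The FPKM of BNIP3L divided by that of BNIP3 was 0.568, 0.704 and 0.739 in controls 1 to 3 and 1.07, 1.03 and 1.01 in hyperoside libraries 1 to 3. BNIP3 was thus the higher of the pair in each control library, and BNIP3L was the higher, by a small margin, in each hyperoside library. The difference in mean log2 ratio was 0.63, with a two-sided exact permutation p of 0.1 and 0.1 after adjustment. As both genes were already separated between the groups, in opposite directions, this ratio had to separate too. Its p adds no support. BNIP3 maps to chr10:131966455-131982013 (minus strand). BNIP3L maps to chr8:26382898-26505636 (plus strand), and 330 of its 4307 exonic bases are shared with the opposite-strand gene PNMA2, which had at most 1 count in any library.

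Of 7 other mitophagy genes, all tested, NLRX1 rose (log2 change 0.73, adjusted p = 0.00635), FKBP8 fell (log2 change -0.34, adjusted p = 9.67e-04) and 5 did not pass the test. The median of these 7 was 0.09, and the share called was 28.6%, beside 45.3% of all tested genes. No common direction was seen in this list.

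NDRG1, a HIF target that is also induced by iron chelation and in differentiating cells, had 206.1, 184.9 and 162.8 CPM in controls 1 to 3 and 323.4, 269.6 and 345.1 CPM in hyperoside libraries 1 to 3. The groups were clearly separated. The mean rose from 184.6 ± 21.6 to 312.7 ± 38.9 CPM (SD, n = 3 in each group), for a log2 change of 0.76 (SE 0.09, adjusted p = 4.31e-06). NDRG1 maps to chr8:133237171-133302022 (minus strand).

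The other genes of the NDRG family did not move together. NDRG4 rose from 1.80 to 4.46 mean CPM, a log2 change of 1.31 (adjusted p = 2.52e-04). NDRG3 fell from 86.5 to 65.9 mean CPM, a log2 change of -0.39 (adjusted p = 7.62e-04), and NDRG2 had a log2 change of -0.05 (adjusted p = 0.657).

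ANKRD37, a small ankyrin repeat gene known as a direct HIF target, had 12.9, 15.5 and 15.1 CPM in controls 1 to 3 and 10.3, 11.0 and 14.6 CPM in hyperoside libraries 1 to 3. Hyperoside replicate 3 lay within the range of the control group. The log2 change was -0.28, with a 95% interval of -0.58 to 0.02 and an adjusted p of 0.116, so a fall of the size seen in HIF1A or BNIP3 is within the interval. The adjusted p was 0.0415 without control replicate 1 (log2 change -0.35) and 0.0271 without hyperoside replicate 3 (log2 change -0.44).

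ANKRD37 maps to chr4:185396021-185400628 (plus strand). Of its 2580 exonic bases, 909 are shared with the opposite-strand gene UFSP2. UFSP2, named after its values were seen, fell with a log2 change of -0.51 (SE 0.10, adjusted p = 4.11e-04). As the use of strand is not stated, its part in the ANKRD37 counts was not tested.

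**Figure D3:**
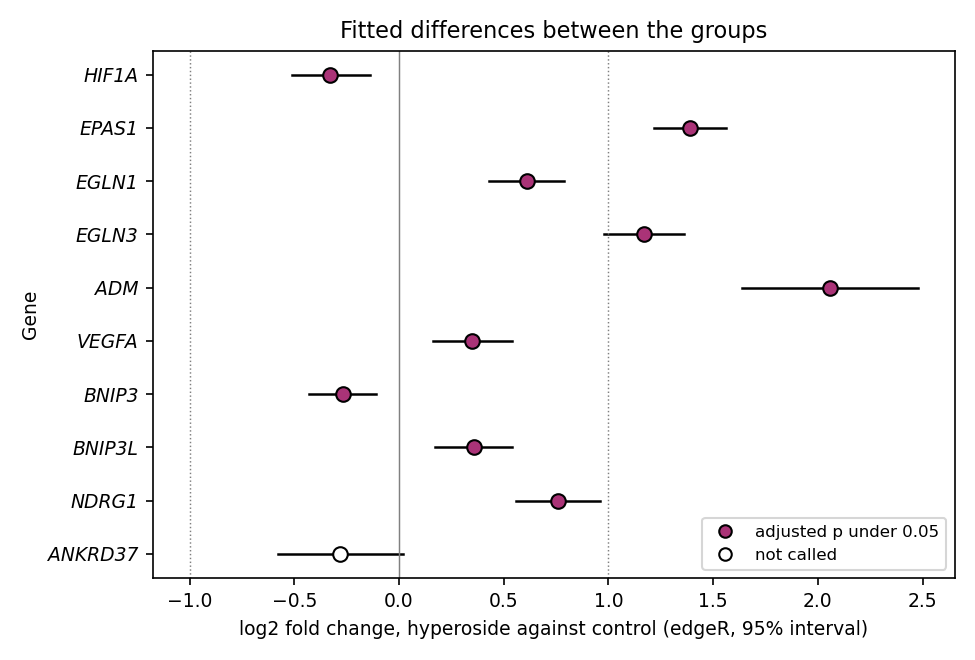
Points give the log2 change of each gene from edgeR, lines its 95% interval, filled points an adjusted p under 0.05 and dotted lines a 2-fold change. ADM, EPAS1 and EGLN3 lie beyond the upper dotted line, although the interval of EGLN3 reaches 0.98, and the interval of ANKRD37 includes 0.

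On the FPKM scale the order of the control means was VEGFA (130.6), BNIP3 (96.0), BNIP3L (64.4), NDRG1 (36.4), EGLN3 (20.2), EGLN1 (15.3), ANKRD37 (13.9), HIF1A (12.7), EPAS1 (6.56) and ADM (1.81). The ranges of EGLN1, ANKRD37 and HIF1A over the control libraries overlapped, although their order was the same within each of these libraries. In the hyperoside group EPAS1 (17.8) stood above ANKRD37 (11.8) and HIF1A (10.5), whose ranges overlapped and whose order differed between libraries, and ADM (7.81) stayed the lowest. The ranges of BNIP3L (85.1) and BNIP3 (82.3) also overlapped in the hyperoside group, with BNIP3L the higher within each library. FPKM uses a single length per gene, so a change of isoform would alter these levels.

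Replicates differed in a way that several members shared. Hyperoside replicate 2 was the lowest hyperoside library in 8 of the 10 genes, against 35.9% of all tested genes. Its level was 59.9% of the mean of hyperoside replicates 1 and 3 for ADM, 74.9% for VEGFA and 80.7% for NDRG1. It was 85.3% for BNIP3L, 86.1% for BNIP3, 88.1% for EGLN3 and 88.4% for ANKRD37. For EGLN1 it was 92.6%, for EPAS1 97.7% and for HIF1A 98.7%. Outside the members, this library was also the lowest of its group for BHLHE40, DDIT4 and HK2, but the highest for EP300 and CREBBP. The median over all tested genes was 99.6%. Leaving this library out kept all 7 members that rose as called higher and ended the call for BNIP3.

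Other hypoxia targets moved in both directions. Of 30 further non-glycolytic hypoxia targets, 25 were tested, 8 rose, 6 fell and 11 did not pass the test, with a median log2 change of 0.03. The share called was 56.0%, beside 45.3% of all tested genes. Among those that rose were BHLHE40, a transcriptional repressor (log2 change 1.02, from 321.8 to 650.7 mean CPM), ZNF395 (1.01), the oxidoreductase gene ERO1A (0.70) and the histone demethylase gene KDM3A (0.65), with adjusted p-values of 2.64e-07, 6.23e-07, 2.81e-06 and 7.00e-06. The largest rise of the list was in TMEM45A, a gene at a lower level (1.38, from 4.30 to 11.16 mean CPM, adjusted p = 9.5e-06). The largest falls were in STC2, a secreted glycoprotein gene (log2 change -3.33, adjusted p = 9.95e-11), and DDIT4, an inhibitor of mTORC1 signalling (-1.48, adjusted p = 9.83e-09). DDIT4 went from 1081 to 388.7 mean CPM. FAM162A (-0.45) and the collagen hydroxylase gene P4HA2 (-0.36) fell by less. CA9, carbonic anhydrase 9, often used as a marker of hypoxia, had 239, 197 and 167 counts in controls 1 to 3 and 158, 119 and 252 in hyperoside libraries 1 to 3, a log2 change of -0.23 (SE 0.24, adjusted p = 0.454). This value rested on single libraries, as it was -0.01 without hyperoside replicate 2, -0.08 without control replicate 1, -0.36 without control replicate 3 and -0.58 (adjusted p = 0.0573) without hyperoside replicate 3.

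**Figure D4:**
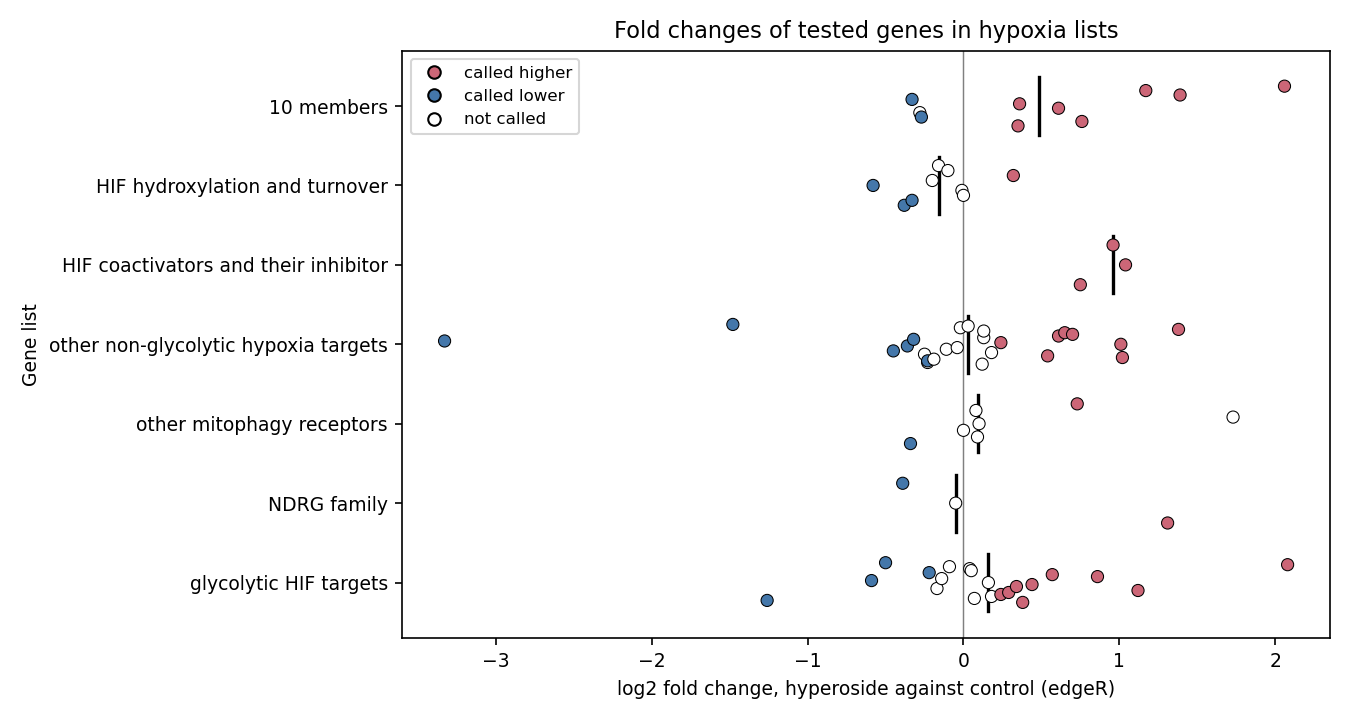
Each point is the log2 change of a tested gene in a list, red where called higher, blue where called lower and white where not called, black bars give the list medians, and the vertical scatter within a list carries no value. The members have a median of 0.48 and the other non-glycolytic hypoxia targets of 0.03, and STC2 at -3.33 is the lowest point.

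The glycolytic targets of HIF were also divided. Of 21 genes, all tested, 9 rose, 4 fell and 8 did not pass the test, with a median log2 change of 0.16. The share called was 61.9%, beside 45.3% of all tested genes. The lactate exporter gene SLC16A3 (log2 change 2.08), the glucose transporter gene SLC2A1 (1.12), PFKP (0.86) and HK2 (0.57) rose, while ALDOC (-1.26) and PGK1 (-0.50) fell. The deposited annotation places 105 genes in the HIF-1 signaling pathway, of which 83 were tested. In this list, which includes HIF1A, EGLN1, EGLN3 and VEGFA and overlaps the glycolytic list, 23 genes rose and 22 fell, and the median log2 change was -0.03. The share called, 54.2%, stood beside 45.3% of all tested genes.

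The genes most alike the leading members over the 6 libraries were found by Pearson's r of log2 CPM, as a description. For EPAS1 they were TXNIP (r = 0.9999) and MS4A3 (r = 0.9998), for EGLN3 ITGAM (r = 0.9986) and LINC00999 (r = 0.9981), and for ADM AGO4 (r = 0.9989) and HECW2-AS1 (r = 0.9982). The 6 points form the 2 treatment groups, so such values mainly restate a difference between the groups and say nothing about shared control.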

How the data were processed

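The RNA-seq data covered 6 libraries of K562 cells, 3 per group, with groups and replicate numbers taken from the sample titles. The authors deposited raw counts per gene, and FPKM values in which the same counts are divided by gene length and library total (checked in 11532 genes with at least 50 counts in each library). The submitters' processing notes name fastp, HISAT2, HTSeq and hg38. Versions, annotation and strand setting are not given in the sources used here. The counts were compared with edgeR 4.0.16 (R 4.3.3): filterByExpr (minimum count 10, minimum total 15), TMM, and the quasi-likelihood test with condition as the only term and Benjamini-Hochberg adjustment over 15095 genes. The standard error is the log2 fold change divided by the square root of F. Calls were made at an adjusted p under 0.05. The paper's methods name DESeq and add a fold change above 2. DESeq2 1.42.0, limma 3.58.1 and other normalizations served as alternatives. The steps were tested on simulated counts. The members and gene lists were chosen with earlier results of these data known. Of each list, up to 4 genes in each direction with the smallest adjusted p were named, besides genes needed for background and TMEM45A. Gene positions and exon overlaps came from GENCODE 29 on GRCh38, promoter sequences from RefSeq. Pathways are those of the deposited annotation, and its other columns were not used. Tables and plots were made in Python 3.11.15 with pandas 2.3.3, numpy 2.4.6 and matplotlib 3.10.9.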

Additional observations from a re-analysis of the deposited data

How the results depend on the processing

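The 7 members called higher stayed so in all 13 alternative fits, which covered normalization, DESeq2, the filter, limma on log2(FPKM + 1) and log2(FPKM + 0.1), blocking on the replicate number, and each library left out. With a fold change above 2 also required, 3 members were called higher and 0 lower. With each library left out in turn, 1 to 3 members were called lower. The log2 fold change then ranged from -0.39 to -0.26 for HIF1A, from -0.31 to -0.20 for BNIP3 and from -0.44 to -0.18 for ANKRD37. The last was called lower without control replicate 1 or hyperoside replicate 3. For ADM the smallest value, 1.62, came from log2(FPKM + 1), a scale that understates the change of low values. The median of the members ranged from 0.44 to 0.56. Same-numbered libraries of the groups did not deviate together (r = -0.081, -0.033 and -0.034 for numbers 1, 2 and 3). Such values cannot tell whether these libraries were set up together, and the labels do not say so. With the replicate block, 7 members were called higher and 2 lower, and the calls over all tested genes went from 3333 to 3026 higher and from 3508 to 3103 lower. With the block, the log2 fold changes were -0.32 for HIF1A, 2.02 for ADM and -0.29 for ANKRD37. CALCRL, RAMP3, VEGFC and VEGFD had too few counts for a comparison, and so had EGLN2, whose counting is uncertain.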
